A study of Homo sapiens with 5 samples.

Results

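The replication-dependent histone genes encode the bulk histones H1, H2A, H2B, H3 and H4 that package newly made DNA. They were chosen by name alone, as every gene symbol of the deposited table that carries the older HIST1 to HIST4 naming with a histone type, and 73 of 26506 symbols met that rule. Of these, 6 were H1 genes, 18 were H2A genes, 20 were H2B genes, 14 were H3 genes and 15 were H4 genes. The HIST1 cluster on chromosome 6 held 56 of them, the HIST2 and HIST3 clusters on chromosome 1 held 13 and 3, and HIST4H4 on chromosome 12 was the remaining gene. The 73 include 3 pseudogenes, HIST1H2APS1, HIST2H2BA and HIST2H2BC.

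Messenger RNA was profiled in H9 cells, an established human embryonic stem cell line, with 1 library for each of 5 combinations of genotype and medium. Wild-type (WT) cells were grown in basal medium (labelled primed), in 2iLAF medium (labelled primed-naive, the series' control sample) and in 5iLAF medium (labelled naive). Cells labelled B3GALT5-/- (here KO, written B3GALT5-KO in the plots) were grown in basal medium (labelled primed) and in 2iLAF medium (labelled naive). Primed and naive are names for a later and an earlier state of pluripotency, and B3GALT5 encodes a galactosyltransferase that builds cell-surface glycans. Whether the knockout line is a single clone, and whether feeder cells were present, is not given in the sources used here. Hereafter the WT 5iLAF and KO 2iLAF libraries are called the 2 naive-labelled libraries.

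Replication-dependent histone genes usually lack introns and are transcribed mostly in S phase, when their products are needed on replicating DNA. Their usual mRNA ends not in a poly(A) tail but in a short conserved stem-loop, which the stem-loop binding protein SLBP holds and which U7 small nuclear RNA helps to cut. Some members also give polyadenylated mRNA, in particular in cells that leave the cell cycle or differentiate. The libraries were made from oligo(dT)-selected RNA, so the values describe the histone mRNA kept by that selection, and not total histone mRNA. How much stem-loop mRNA each library captured was not tested.

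The stem-loop is shown because it is the feature that sets these mRNAs apart and because genes at very different levels carry the same letters. Each line below is read from a GENCODE 29 transcript model, 5′ to 3′, with the stem-loop in capitals and the 6 bases on either side, or as many as the model holds, in lower case:
HIST1H2BN: tacaacGGCTCTTTTCAGAGCCaccta
HIST1H2BE: cccaaaGGCTCTTTTCAGAGCCactcac
HIST2H2BF: cccaaaGGCTCTTTTCAGAGCCacttca
HIST3H2A: cataaaGGCTCTTTTCAGAGCCacctac
HIST1H2BH: cccaaaGGCTCTTTTCAGAGCCacttaa
HIST1H4J: ataaaaGGCCCTTTTCAGGGCCacccta
HIST1H4I: taaaaaGGCCCTTTTTAGGGCCcctaag
The first 5 genes share the form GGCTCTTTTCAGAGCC, although HIST1H2BN, HIST1H2BE and HIST2H2BF were high only in the naive-labelled libraries and HIST1H2BH was lower there. The H4 genes HIST1H4J and HIST1H4I each carry a form with a GGCC stem. Searched on the transcript strand as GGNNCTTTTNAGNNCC, where N is any base, the pattern was present in at least 1 model of 32 of the 73 members and in 0.140% of the 57133 gene symbols in that annotation. It took 5 forms: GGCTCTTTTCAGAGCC in 17 genes (6 H2A, 8 H2B and 3 H3), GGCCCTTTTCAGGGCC in 5 H4 genes, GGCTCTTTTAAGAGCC in 5 genes (3 H2B and 2 H3), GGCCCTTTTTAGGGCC in 3 H4 genes and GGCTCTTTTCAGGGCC in 2 genes (1 H2A and 1 H2B). For 32 members every model stops at the end of the coding sequence and cannot show the pattern, and the 32 genes with it are among the 41 whose models go further.

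Across the whole series, the deposited TPM (a level per length of transcript) had the same total in each library within rounding, so the depth of sequencing is unknown, and between 13729 and 14156 genes reached 1 TPM. B3GALT5 itself was at 9.31 TPM (WT basal), 5.98 (KO basal), 5.13 (WT 2iLAF), 2.08 (WT 5iLAF) and 1.17 (KO 2iLAF). No source used here gives the stretch of the gene that the knockout changed, so this level does not check the genotype labels. The 10 pluripotency markers were at 1 TPM or more in every library, with sums from 3042 to 6914 TPM, but their levels were not alike. By a log2 difference of TPM + 1 of at least 1 in size, 4 were lower and 0 higher in WT 5iLAF than in WT basal. The numbers were the same in KO 2iLAF against KO basal, and 5 were lower and 2 higher in WT 2iLAF than in WT basal. Markers of other cell types also moved between libraries: the summed TPM of 12 fibroblast markers was 85.0 to 150 in the 3 libraries not labelled naive, 2069 in WT 5iLAF and 6050 in KO 2iLAF, and the sum of 20 neutrophil markers was 5.48 to 25.8 in 4 libraries and 1306 in KO 2iLAF. The sum of 16 erythroid markers was 238 in WT basal and 230 in KO 2iLAF, against 1.95 to 19.1 in the remaining 3. With 1 library per group there is no replicate error, no test was made, and each difference below is a difference between libraries. In bulk RNA, fewer cells of a type and less RNA per cell cannot be told apart.

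Histone mRNA was a small part of every library and was highest in the 2 naive-labelled libraries. The 73 genes together stood at 153 TPM (WT basal), 114 (KO basal), 95.5 (WT 2iLAF), 373 (WT 5iLAF) and 402 (KO 2iLAF). The naive-labelled libraries therefore lay above the other 3, at 2.43-fold the WT basal sum for WT 5iLAF and 3.53-fold the KO basal sum for KO 2iLAF. The sum corresponds to 0.00955% of all TPM in the lowest library and 0.0402% in the highest.

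The difference lay mostly in H2A and H2B, the pair of histones that form a dimer on the outer faces of the nucleosome. Summed H2B was 55.1 TPM (WT basal), 40.0 (KO basal), 39.3 (WT 2iLAF), 222 (WT 5iLAF) and 213 (KO 2iLAF). Summed H2A was 40.3, 32.2, 18.7, 92.0 and 128 TPM in the same order. For both types the naive-labelled libraries lay above the other 3. Against basal medium of the same genotype, H2B was 4.02-fold higher in WT 5iLAF and 5.33-fold higher in KO 2iLAF, and H2A was 2.28-fold and 3.99-fold higher.

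The sums of H1, H3 and H4 spread far less. Summed H4 was 33.9 TPM (WT basal), 22.6 (KO basal), 21.5 (WT 2iLAF), 34.2 (WT 5iLAF) and 33.7 (KO 2iLAF), so WT basal and the naive-labelled libraries were at nearly the same level. Summed H3 lay between 7.76 and 11.1 TPM, and the naive-labelled libraries (8.28 and 11.1) overlapped WT basal (10.2). Summed H1 lay between 8.18 and 17.3 TPM and was highest in WT 5iLAF. In a nucleosome all 4 core histones take part in equal number, whereas in these poly(A)-selected libraries H2B exceeded H3 by sum in every library.

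**Figure D1:**
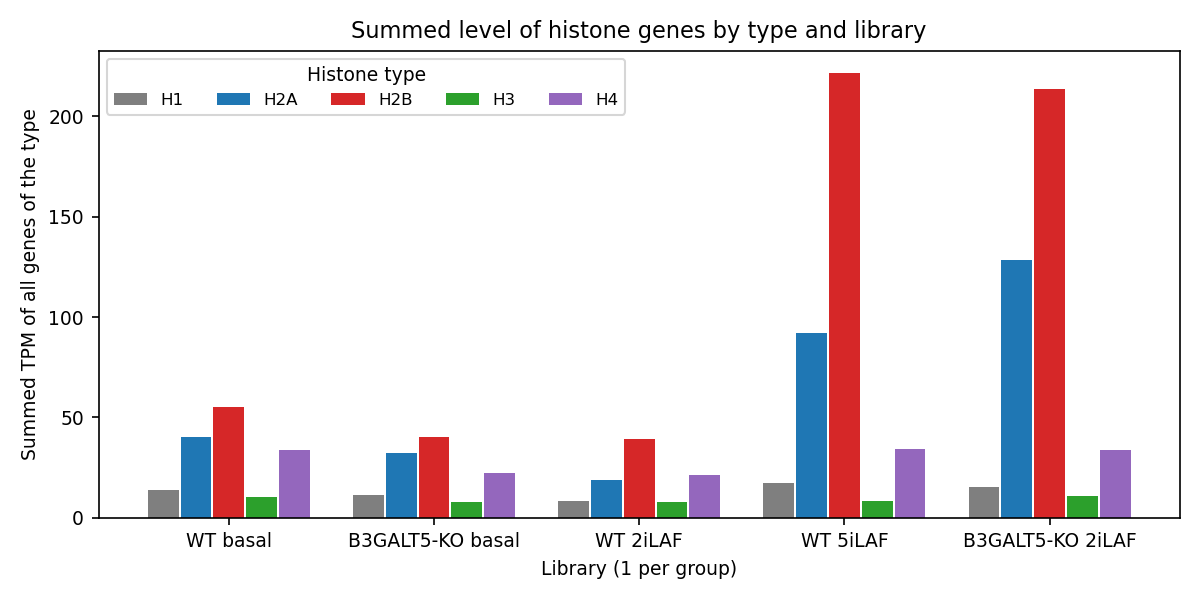
Bars give the summed TPM of all genes of each histone type (colours) in each of the 5 libraries, 1 library per group, so there are no error bars. H2B and H2A reach 222 and 92.0 TPM in WT 5iLAF and 213 and 128 in KO 2iLAF, while H3 stays at or below 11.1 TPM throughout.

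Among the 20 H2B genes, 4 were near or below 2 TPM outside the naive-labelled libraries and far above it within them. HIST1H2BN was at 0.17 TPM (WT basal), 0.38 (KO basal), 0.97 (WT 2iLAF), 69.8 (WT 5iLAF) and 61.8 (KO 2iLAF). It was the most abundant member in both naive-labelled libraries and below 1 TPM in each of the others. All single-gene log2 differences here are on the scale of log2(TPM + 1), which understates the change of low genes, while fold values of single genes are plain ratios of TPM. On the log2 scale HIST1H2BN was higher by 5.92 in WT 5iLAF than in WT basal and by 5.51 in KO 2iLAF than in KO basal.

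HIST1H2BE was at 1.74, 0.40, 1.5, 44.3 and 40.9 TPM in the order WT basal, KO basal, WT 2iLAF, WT 5iLAF and KO 2iLAF, an order kept for every list of values that follows. Its log2 differences were 4.05 in WT 5iLAF and 4.90 in KO 2iLAF, each against basal medium. HIST2H2BF, in the chromosome 1 cluster, was at 0.64, 0.34, 0.43, 37.1 and 30.5 TPM. HIST1H2BL was at 1.33, 0.38, 0.72, 20.4 and 12.5 TPM. For these genes, too, the lowest naive-labelled value was well above the highest of the other 3 libraries.

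HIST1H2BK, known for a polyadenylated mRNA in other cells, was already abundant in basal medium, at 12.3, 7.32, 14.0, 33.7 and 40.1 TPM. It was 2.74-fold higher in WT 5iLAF than in WT basal and 5.48-fold higher in KO 2iLAF than in KO basal. HIST1H2BH went the other way, at 13.4, 7.55, 13.1, 7.0 and 4.41 TPM. Both naive-labelled libraries were below the other 3 for HIST1H2BH, but its log2 difference passed a size of 1 only between KO 2iLAF and WT 2iLAF (-1.39).

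Other H2B genes with polyadenylated forms did not share this pattern. HIST1H2BD was at 6.73, 4.17, 2.05, 1.90 and 3.49 TPM and HIST1H2BJ at 2.94, 0.88, 0.22, 0.29 and 1.02 TPM. Both were highest in WT basal. HIST2H2BE was at 3.23, 3.35, 1.95, 1.39 and 4.95 TPM and HIST1H2BC at 3.46, 2.36, 0.50, 1.70 and 4.20 TPM, so for each the naive-labelled libraries lay on either side of WT basal. Among the remaining H2B genes, HIST1H2BF was at 1.06, 3.62, 0.25, 0.99 and 0.29 TPM, with its highest value in KO basal. The pseudogene HIST2H2BC was at 4.72, 6.08, 2.86, 1.85 and 4.07 TPM.

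The most abundant H2A gene was HIST3H2A, at 8.66, 8.16, 5.15, 41.7 and 48.3 TPM. It was 4.82-fold higher in WT 5iLAF than in WT basal and 5.92-fold higher in KO 2iLAF than in KO basal, and without it the log2 ratio of the H2A sum between WT 5iLAF and WT basal fell from 1.19 to 0.67. HIST2H2AC was at 3.17, 1.32, 1.25, 13.1 and 16.8 TPM, and HIST1H2AM at 2.59, 1.56, 1.97, 10.9 and 14.3 TPM. HIST1H2AL was at 0.95, 0.96, 0, 6.76 and 11.3 TPM. In each of these 4 genes both naive-labelled libraries were above the other 3.

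The paired copies HIST2H2AA3 and HIST2H2AA4 differed from that pattern. Each was listed at 3.61, 2.18, 1.87, 3.01 and 9.63 TPM, so only KO 2iLAF stood above WT basal, and the log2 difference between the naive-labelled libraries was 1.41. HIST1H2AC, whose polyadenylated form is known, was at 5.35, 7.45, 2.50, 2.73 and 6.13 TPM, with WT 5iLAF below and KO 2iLAF above WT basal. HIST2H2AA3 and HIST2H2AA4 had identical values in all 5 libraries, as did HIST2H3A and HIST2H3C, and HIST2H4A and HIST2H4B. Such copies share their reads, which the authors' software divides by an estimate, so each pair is 1 measurement listed under both names.

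HIST1H4J was the most abundant H4 gene in every library, at 17.8 TPM (WT basal), 11.0 (KO basal), 8.07 (WT 2iLAF), 22.3 (WT 5iLAF) and 23.3 (KO 2iLAF). Its share of the H4 sum was 37.5% in WT 2iLAF and 69.0% in KO 2iLAF. The log2 difference was 0.31 between WT 5iLAF and WT basal and 1.02 between KO 2iLAF and KO basal. HIST1H4I was at 1.91, 1.21, 0.61, 5.17 and 4.21 TPM, again highest in the naive-labelled libraries. HIST2H4A and HIST2H4B, the identical pair, were each at 4.58, 2.11, 1.54, 1.63 and 1.6 TPM and were highest in WT basal.

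The remaining H4 genes were near the lower limit of the data. HIST1H4K was listed at 0 in WT basal and in both naive-labelled libraries, at 1.93 TPM in KO basal and at 4.41 TPM in WT 2iLAF. HIST1H4H peaked in WT 2iLAF at 2.71 TPM. In KO 2iLAF, 5 H4 genes lay between 0.34 and 0.36 TPM, a common low step. H4 coding sequences are nearly identical, so reads can be exchanged among these genes and with HIST1H4J. Differences among members under 1 TPM are given without further reading.

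H3 genes were low in every library, and none reached 5 TPM. HIST2H3D was at 1.07, 0.37, 1.18, 3.30 and 3.44 TPM and was higher in both naive-labelled libraries, whereas HIST1H3G was at 2.72, 1.82, 1.38, 0.30 and 1.05 TPM and was lower in both. HIST1H3H was at 2.68, 1.80, 2.50, 1.47 and 1.81 TPM, with overlap between the naive-labelled libraries and the others. HIST1H3B was at 0.47, 0, 0, 0.29 and 1.04 TPM and HIST1H3J at 0.16, 1.06, 0, 0.58 and 0 TPM.

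H1, the linker histone that binds DNA between nucleosomes, was represented almost entirely by HIST1H1C. It was at 11.9, 9.29, 6.77, 15.3 and 12.3 TPM, between 79.3% and 88.6% of the H1 sum. Both naive-labelled libraries were above the other 3, but by a log2 difference of only 0.34 in WT 5iLAF and 0.37 in KO 2iLAF against basal medium. HIST1H1E was at 0.71, 0.91, 0.64, 1.32 and 1.46 TPM, and HIST1H1A, HIST1H1B and HIST1H1D stayed under 1 TPM throughout. The members known for expression in testis, HIST1H1T, HIST1H2AA and HIST1H2BA, were listed at 0 in every library, and HIST3H3 at 0.51 TPM in KO 2iLAF and 0 elsewhere.

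Counted over all 73 genes, 19 were higher in both naive-labelled libraries than in each of the other 3, and 5 were lower (HIST1H2AH, HIST1H2BH, HIST1H3F, HIST1H3G and HIST1H4C). Of all 26506 genes in the table, 20.5% were higher and 18.1% lower by the same rule, against 26.0% and 6.85% of the members. Among genes at 1 TPM or more in at least 1 library, 18 of 45 members were higher and 3 lower, beside 29.3% and 26.9% of all 15761. The 19 of 73 were mostly H2A and H2B genes and included HIST1H1C, HIST1H4J, HIST1H4I and HIST2H3D. Picked after their values were seen, the 9 genes HIST1H2BN, HIST1H2BE, HIST2H2BF, HIST1H2BL, HIST1H2BK, HIST3H2A, HIST1H2AM, HIST1H2AL and HIST2H2AC summed to 31.6, 20.8, 26.0, 278 and 276 TPM. The other 64 genes summed to 122, 93.1, 69.5, 95.6 and 126 TPM, and there the naive-labelled libraries overlapped the other 3.

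**Figure D2:**
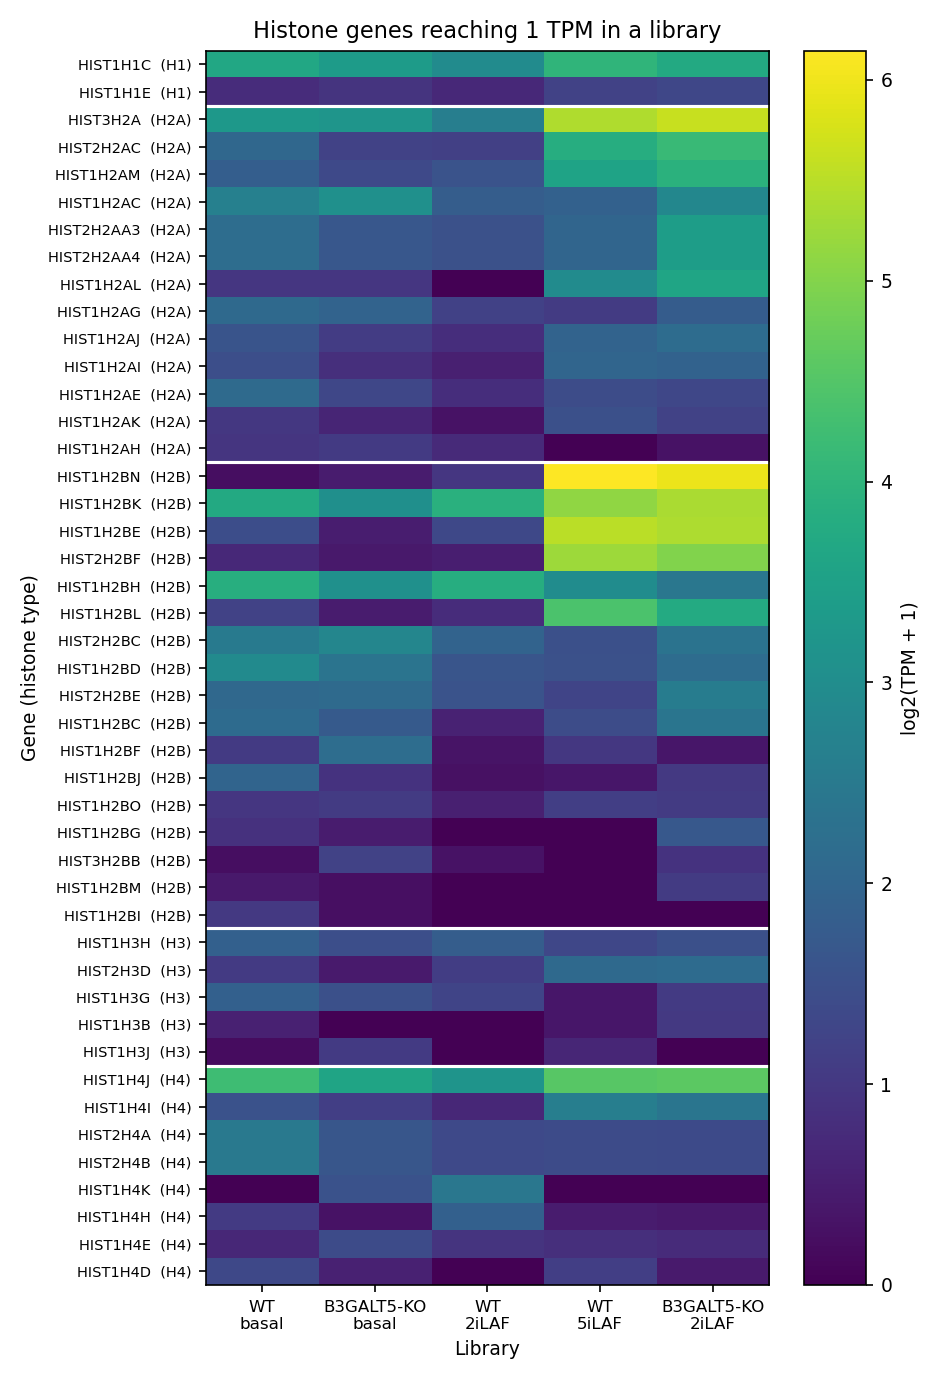
Each row is a histone gene that reached 1 TPM in at least 1 library, grouped by type and ordered by mean TPM, each column is a library, and colour gives log2(TPM + 1). The bright cells of HIST1H2BN, HIST1H2BE, HIST2H2BF and HIST1H2BL stand only in the WT 5iLAF and KO 2iLAF columns, and HIST1H2BH is dimmer there.

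For counts, a gene entered if it reached 1 TPM in at least 1 library, and it was counted as higher or lower where its log2 difference was 1 or more in size. Of the 73 members, 45 entered: 2 H1, 13 H2A, 17 H2B, 5 H3 and 8 H4 genes. Of the 28 that did not, 9 were listed at 0 in all 5 libraries and 19 were above 0 but under 1 TPM. Just inside the limit were HIST1H3B and HIST1H2BI with a highest value of 1.04 TPM, and just outside were HIST1H4C (0.99 TPM) and HIST1H4L (0.93 TPM). Since 8 members entered only through a naive-labelled library and 8 only through one of the others, the counts describe the 45 and support nothing by themselves.

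The medium was compared first within each genotype. In WT 5iLAF against WT basal, 11 of 45 members were higher and 8 lower, while 10.7% of all 15761 genes entered were higher and 11.4% lower. The 11 were 4 H2A genes, 5 H2B genes, HIST2H3D and HIST1H4I. The 8 lower were HIST1H2AG, HIST1H2BD, HIST1H2BI, HIST1H2BJ, HIST1H3G, HIST2H2BC, HIST2H4A and HIST2H4B. The median log2 difference was -0.18 over the members and -0.06 over all genes. The members' median depended on which members entered: it was -0.05 with identical pairs counted once, 0 over all 73 members and 1.23 over the 18 members that reached 5 TPM in at least 1 library.

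In KO 2iLAF against KO basal, 18 of 45 members were higher and 3 lower, beside 15.9% and 11.8% of all genes. By type, 8 of 13 H2A genes, 6 of 17 H2B genes, 2 of 5 H3 genes and 2 of 8 H4 genes were higher. HIST1H2BF, HIST1H3J and HIST1H4K were the 3 lower. The median was 0.37 over the members and 0.02 over all genes, and 2.02 over the 18 members that reached 5 TPM in at least 1 library.

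These comparisons share no library, so they can be set against each other. The 11 members higher in WT 5iLAF were all higher in KO 2iLAF as well, where they made up 61.1% of the 18. Over all genes the corresponding shares were 82.3% and 55.7%. No member was lower in both, where 8 and 3 of the 45 were lower in the single comparisons. Of all 15761 genes 1295 were lower in both, with 1793 and 1867 lower in the single comparisons. Over the 45 members Pearson's r of the log2 differences was 0.865 and Spearman's rho 0.679, and over all genes 0.840 and 0.821, as descriptions across genes, which are not independent replicates.

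**Figure D3:**
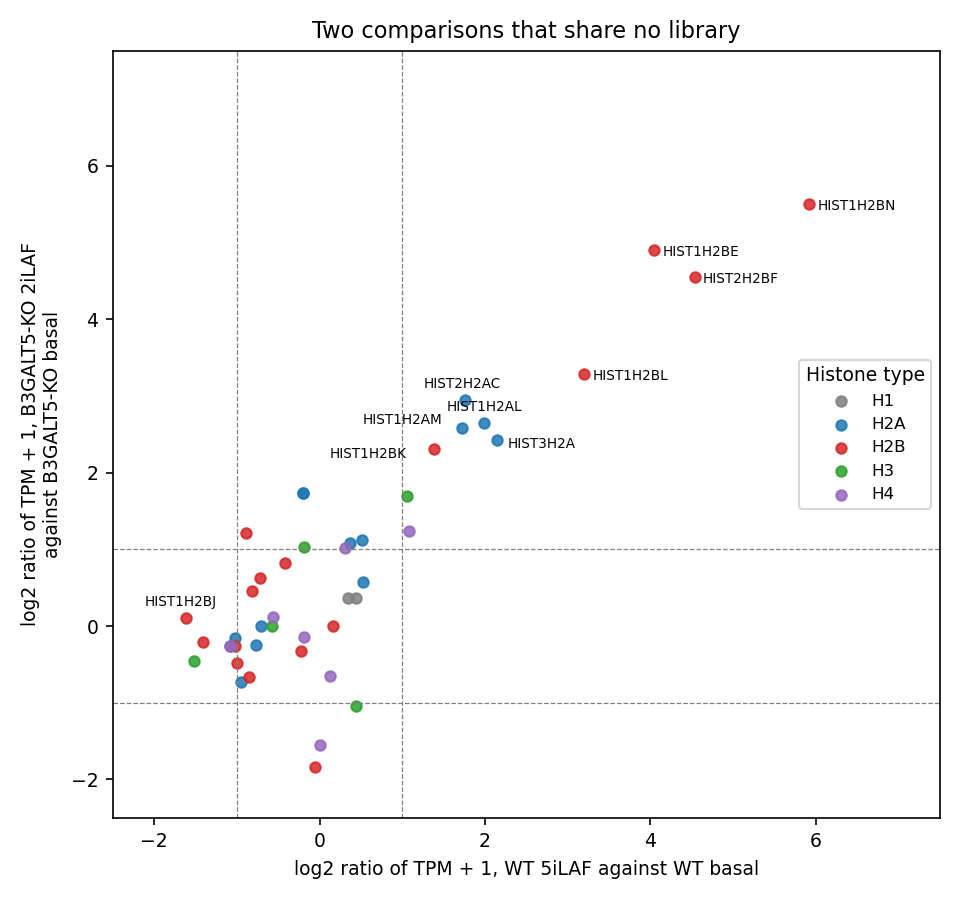
Each point is 1 of the 45 histone genes, coloured by type, with the log2 difference of TPM + 1 between WT 5iLAF and WT basal on the horizontal axis and that between KO 2iLAF and KO basal on the vertical axis, and dashed lines at 1 and -1. The H2B genes HIST1H2BN, HIST1H2BE, HIST2H2BF and HIST1H2BL stand at the upper right, and no point lies beyond -1 on both axes.

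In WT cells 2iLAF medium did not go with higher histone mRNA. In WT 2iLAF against WT basal, 1 of 45 members was higher (HIST1H4K) and 9 lower, beside 4.73% and 7.02% of all genes. The 9 included HIST1H4J (-1.05), HIST1H2BD (-1.34), HIST1H2BJ (-1.69), HIST1H2BC (-1.57) and HIST1H2AE, which went from 3.35 to 0.74 TPM (-1.32). The median was -0.65 over the members and -0.13 over all genes, so the members are to be read against a shift of all genes. With the libraries rescaled by the median ratio of all genes, the members' median was -0.53 and that of all genes was 0. HIST1H2BN, HIST1H2BE, HIST2H2BF and HIST1H2BL stayed at or below 1.5 TPM in WT 2iLAF.

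Genotype was compared within each medium. In basal medium, KO against WT, 2 of 45 members were higher and 1 lower, beside 0.704% and 1.05% of all genes. HIST1H2BF (1.06 to 3.62 TPM) and HIST1H4K (0 to 1.93 TPM) were the higher ones, and HIST1H2BJ (2.94 to 0.88 TPM) was the lower one. Of the 45, 32 (71.1%) had a value below 0, as did 58.8% of all genes, and the median was -0.41, against -0.06 over all genes. Summed by type, the KO level was below the WT level for each of the 5 types, from 1.22-fold lower for H1 to 1.5-fold lower for H4, although H1 without HIST1H1C had a log2 ratio of 0.05.

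In 2iLAF medium, KO against WT, 22 of 45 members were higher and 3 lower, beside 16.6% and 10.8% of all genes. Of the 22, 9 were H2A, 9 H2B, 2 H3 and 2 H4 genes, and HIST1H2BH, HIST1H4H and HIST1H4K were lower. Summed H2A was 6.85-fold and summed H2B 5.44-fold higher in KO 2iLAF. This contrast shares its KO 2iLAF library with the contrast against KO basal, so the counts are not separate evidence.

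The 2 naive-labelled libraries were also set against each other. In KO 2iLAF against WT 5iLAF, 5 of 45 members were higher and 0 lower, beside 4.90% and 1.03% of all genes. They were HIST2H2AA3, HIST2H2AA4, HIST2H2BE, HIST1H2BG and HIST1H2BM. The paired copies HIST2H2AA3 and HIST2H2AA4 are the same measurement. HIST1H2BG (2.22 TPM, against 0 in WT 5iLAF) and HIST1H2BM (1.11 against 0) entered only through KO 2iLAF, the library where they are counted as higher. The count of 5 therefore supports nothing by itself. The summed H2B level differed by 1.04-fold and the summed H2A level by 1.39-fold, the latter higher in KO 2iLAF. Genotype and medium differ together here and cannot be told apart.

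Upstream sequence is shown for 4 H2A or H2B genes and 1 H4 gene to set genes that moved differently beside each other. The letters come from the RefSeq promoter table (build GRCh38.p14), 5′ to 3′ on the strand of the gene, and are the stretch of the 250 bases before the annotated start that no GENCODE 29 exon covers. The deposited values were made on hg19. Capitals mark every match to a searched motif on either strand, so that ATTGG is a CCAAT box read from the other strand:
HIST2H2BF (chr1:149812374-149812620, minus strand): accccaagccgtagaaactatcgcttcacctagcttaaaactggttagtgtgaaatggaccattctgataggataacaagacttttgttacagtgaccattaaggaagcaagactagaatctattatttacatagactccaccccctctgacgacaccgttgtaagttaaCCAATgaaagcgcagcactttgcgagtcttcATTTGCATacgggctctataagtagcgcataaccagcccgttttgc
HIST1H2BK (chr6:27146859-27147108, minus strand): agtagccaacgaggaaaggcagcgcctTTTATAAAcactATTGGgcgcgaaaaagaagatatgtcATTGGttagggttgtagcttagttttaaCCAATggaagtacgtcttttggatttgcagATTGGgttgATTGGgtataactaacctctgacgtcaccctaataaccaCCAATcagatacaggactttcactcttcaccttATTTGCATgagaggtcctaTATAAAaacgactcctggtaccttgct
HIST3H2A (chr1:228457874-228458106, minus strand): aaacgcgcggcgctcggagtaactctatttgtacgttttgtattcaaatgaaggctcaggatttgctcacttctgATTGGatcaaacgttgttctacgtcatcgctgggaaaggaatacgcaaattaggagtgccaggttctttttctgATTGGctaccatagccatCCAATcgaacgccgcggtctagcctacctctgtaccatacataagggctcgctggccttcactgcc
HIST1H2BH (chr6:26251364-26251613, plus strand): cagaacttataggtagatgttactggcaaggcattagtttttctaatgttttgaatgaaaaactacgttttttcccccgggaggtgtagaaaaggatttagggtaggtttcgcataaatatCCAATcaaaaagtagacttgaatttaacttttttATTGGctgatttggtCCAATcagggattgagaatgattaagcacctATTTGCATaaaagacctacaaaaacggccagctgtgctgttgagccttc
HIST1H4J (chr6:27823842-27824091, plus strand): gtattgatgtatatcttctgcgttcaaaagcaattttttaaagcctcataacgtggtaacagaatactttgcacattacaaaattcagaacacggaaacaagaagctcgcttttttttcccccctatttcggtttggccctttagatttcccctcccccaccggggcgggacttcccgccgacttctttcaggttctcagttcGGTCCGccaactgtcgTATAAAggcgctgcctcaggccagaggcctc
HIST2H2BF, HIST1H2BK and HIST1H2BH carry the octamer ATTTGCAT, the element bound by the POU factor OCT1 in H2B promoters, and a CCAAT box, known as a site for the factor NF-Y. HIST3H2A carries CCAAT boxes and no octamer. HIST1H4J carries GGTCCG, the core of the element known as site II of H4 promoters, and TATAAA. The octamer was thus present in the window of HIST1H2BH, which was lower in the naive-labelled libraries, as well as in those of HIST2H2BF and HIST1H2BK, which were higher.

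A promoter of 250 bases before to 50 after the start was matched for 65 of the 73 members. Besides the octamer, the motifs searched were TATAAA (the TATA box), then CCAAT, then AAACACA (the H1 box) and last GGTCCG, each on both strands. The TATA box can overlap its own reverse complement, and a CCAAT box on the other strand can share bases with GGTCCG. The share of promoters with CCAAT was 84.6% among members and 34.6% among all 35116 in the table, and that with TATAAA was 66.2% against 11.5%. The octamer was present in 11 of 16 H2A and 14 of 18 H2B promoters, and in 1.77% of all promoters. AAACACA was found in 6 of 6 H1 promoters (5.64% of all) and GGTCCG in 12 of 13 H4 promoters (11.3% of all). Among the 12 members that reached 10 TPM in a library, 7 had the octamer, 11 had CCAAT and 6 had TATAAA, and among the other 53 these numbers were 19, 44 and 37. These are matches of letters and say nothing of binding.

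Many H2A and H2B genes lie head to head. By their GENCODE 29 start sites, 13 pairs of members on opposite strands started within 1000 bases of each other, and 12 of them were an H2A gene with an H2B gene. Partners were often at different levels. HIST3H2A and HIST3H2BB start 234 bases apart, and HIST3H2BB was at 0.17, 1.33, 0.24, 0 and 0.86 TPM where HIST3H2A reached 41.7 and 48.3. HIST1H2BK reached 33.7 and 40.1 TPM in the naive-labelled libraries while its partner HIST1H2AH, 331 bases away, was at 0 and 0.24 TPM. HIST2H2AC was at 13.1 and 16.8 TPM beside HIST2H2BE at 1.39 and 4.95 TPM. HIST1H2BL was at 20.4 and 12.5 TPM beside HIST1H2AI at 2.98 and 2.84 TPM, a pair in which both genes were highest in the naive-labelled libraries.

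**Figure D4:**
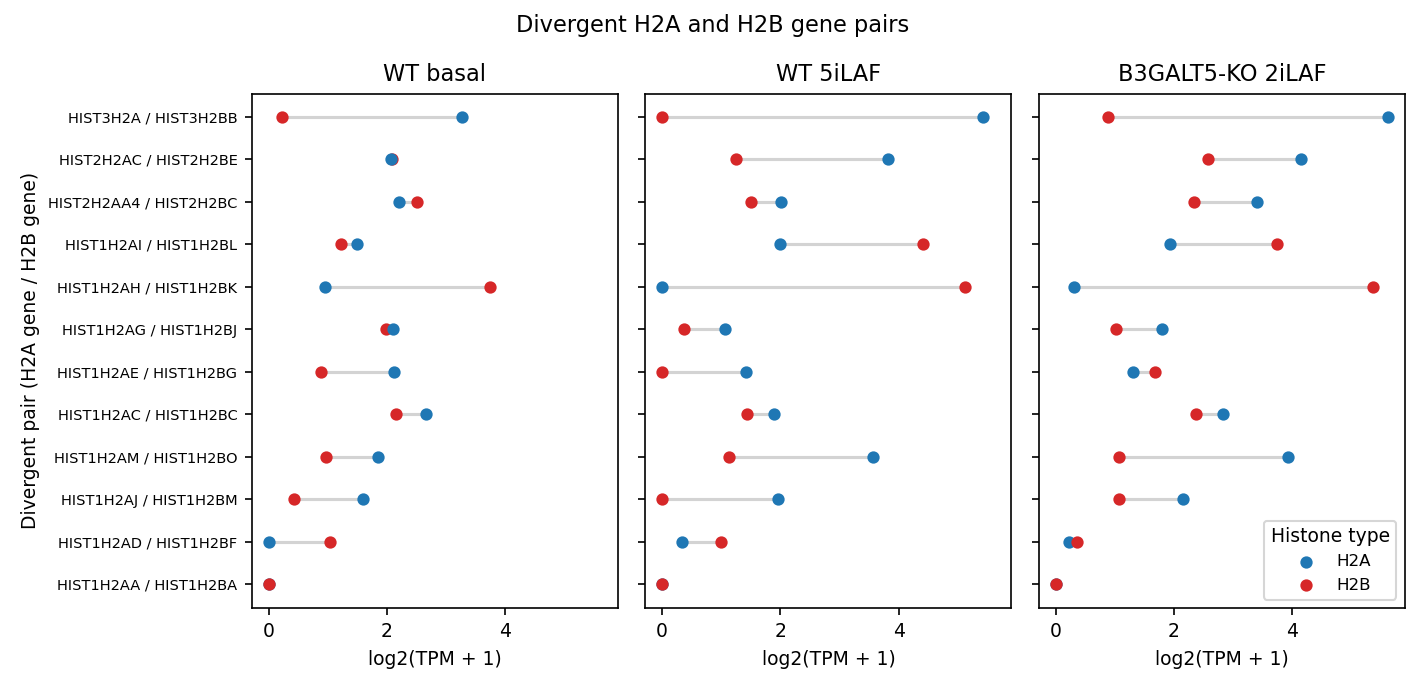
Each row is a head-to-head pair of an H2A gene (blue) and an H2B gene (red), joined by a grey line, with log2(TPM + 1) on the horizontal axis in 3 of the libraries. In the pairs HIST3H2A with HIST3H2BB and HIST1H2AH with HIST1H2BK the partners are far apart in both naive-labelled libraries.

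Transcript models of the members differ in how far they extend past the stem-loop, and which gene models the authors used is not stated. HIST1H2BN has GENCODE 29 models of 432, 715, 1723 and 4137 bases, and the longest lacks the stem-loop and carries a poly(A) signal in its last 50 bases. HIST1H2BE has a model of 497 bases that ends 1 base after the stem-loop and another of 2585 bases that goes on for 430 bases. Of the 5 models of HIST2H2BF, only that of 1954 bases holds the stem-loop, and it runs 1479 bases past it. A HIST2H2BF model of 459 bases without the stem-loop carries a poly(A) signal. The model of HIST1H2BH runs 1640 bases past the stem-loop, and that of HIST3H2A 390 bases. A poly(A) signal (AATAAA or ATTAAA within the last 50 bases) was present in at least 1 model of 24 of 73 members (32.9%), of 6 of the 12 that reached 10 TPM, and of 46.1% of the 57133 gene symbols in that annotation. For 32 of the 73 and 5 of the 12, every model stops at the end of the coding sequence and cannot show a signal past it. The share of members is therefore not comparable with that of all symbols. HIST1H2BN overlaps HIST1H2AL on the same strand and HIST1H2AK on the opposite strand. HIST2H2BF overlaps AC243772.2 on the same strand and FCGR1A on the opposite strand. The kit preserves strand per the labels, but no source used here gives the strand setting of the counting, so reads of opposite-strand neighbours may be mixed, and those of same-strand neighbours are divided by estimate.

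The 9 members reported in other cells to give polyadenylated mRNA did not move together. They were HIST1H1C, HIST1H2AC, HIST1H2BC, HIST1H2BD, HIST1H2BJ, HIST1H2BK, HIST2H2BE, HIST3H2A and HIST4H4, and 8 of them entered. In WT 5iLAF against WT basal, HIST1H2BK and HIST3H2A were higher, HIST1H2BD and HIST1H2BJ were lower, and the median was -0.75. Between KO 2iLAF and KO basal the same 2 were higher, none was lower and the median was 0.41. HIST1H2BN, HIST1H2BE, HIST2H2BF and HIST1H2BL are not on that list.

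The genes that transcribe and process histone mRNA were described from a list of their own. Of 24 genes for histone transcription, 3′ processing and decay, 0 were higher and 0 lower in WT 5iLAF against WT basal (median -0.10). Between KO 2iLAF and KO basal 0 were higher and 1 was lower, MIF4GD, an SLBP partner (24.4 to 10.9 TPM). SLBP was at 47.6, 51.3, 58.4, 61.6 and 77.1 TPM and was highest in the naive-labelled libraries. NPAT, the coactivator of histone genes in S phase, was at 10.1, 10.1, 11.6, 6.69 and 7.83 TPM and was lowest there.

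Replication-independent histone variants mostly have polyadenylated mRNA and were, as a group, far more abundant here. Their 20 genes, of which 12 entered, summed to 2937, 2518, 2311, 2152 and 2339 TPM, and 0 were higher and 0 lower in WT 5iLAF against WT basal. Between KO 2iLAF and KO basal 1 was higher and 0 lower, H2AFY, which encodes macroH2A1 (145 to 302 TPM, log2 difference 1.06). In WT 2iLAF against WT basal H1F0 was higher and H2AFY, H2AFJ and CENPA were lower. From WT 2iLAF to KO 2iLAF those 3 were higher and H1FX was lower. H2AFZ, which encodes H2A.Z, was at 1505, 1230, 904, 833 and 917 TPM and H3F3B, which encodes H3.3, at 416, 365, 465, 443 and 421 TPM. The variant sum thus rests in large part on H2AFZ, the most abundant variant in every library. Of 19 histone chaperones and importers none passed a log2 difference of 1 in either comparison of a naive-labelled library against basal medium. Their medians were nevertheless below 0, at -0.49 in WT 5iLAF and -0.42 in KO 2iLAF, and their summed level was 3133, 2883, 2621, 2208 and 2057 TPM. NASP, a chaperone of H1 and H3 with H4, was at 596, 525, 425, 303 and 277 TPM and was lowest in the naive-labelled libraries.

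Taken as a list, S-phase genes were not higher in the libraries where the H2A and H2B sums were. Of 30 replication genes 0 were higher and 3 lower in WT 5iLAF against WT basal, beside 10.7% and 11.4% of all genes. The numbers in KO 2iLAF against KO basal were 0 and 4, beside 15.9% and 11.8%. The counts lower were thus near the shares of all genes. Medians of the list were -0.40 and -0.49, against -0.06 and 0.02 over all genes. Not every gene was lower, as TYMS was at 129, 107, 144.5, 204 and 196 TPM. Inhibitors of cyclin-dependent kinases went the other way, with 6 of 7 higher in each of these comparisons, beside 10.7% and 15.9% of all genes. Their medians were 1.87 and 1.77. In WT 2iLAF against WT basal 2 of 7 were higher, beside 4.73% of all genes. Their sum was 50.2, 52.7, 97.0, 144 and 204 TPM, so it was raised in WT 2iLAF too, where the histone sum was lowest. CDKN1C was at 12.2, 15.2, 51.3, 47.5 and 54.2 TPM. CDKN1A, which encodes p21, was at 5.38, 0.41, 13.9, 33.0 and 48.8 TPM, and CDKN2A at 0.18, 0.37, 0.16, 12.6 and 33.3 TPM.

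Fibroblast markers were higher in the same libraries as HIST1H2BN and the summed H2A and H2B levels, although not every H2A or H2B gene was higher there. Of 12 markers, 10 were higher and 0 lower in WT 5iLAF against WT basal, and 11 were higher and 0 lower in KO 2iLAF against KO basal. COL1A1 was at 19.4, 24.1, 45.3, 827 and 1630 TPM and COL3A1 at 0.30, 0.08, 0.19, 258 and 1871 TPM. Their sum was 2.92-fold higher in KO 2iLAF than in WT 5iLAF, beside an H2A sum that was 1.39-fold higher and an H2B sum that was 1.04-fold lower. Of 19 neutrophil markers that entered, 19 were higher in KO 2iLAF against KO basal and 0 in WT 5iLAF against WT basal, where S100A8, S100A12, ELANE and CTSG were listed at 0. Not all markers of the list were near 0 there: MMP9 was at 16.2, 8.38, 0.52, 23.7 and 25.1 TPM. The sum of the erythroid markers was 238 TPM in WT basal and 230 in KO 2iLAF. Single erythroid markers differed between these libraries in both directions, as HBA1 (22.9 and 42.0 TPM) and AHSP (9.63 and 1.43 TPM). The part of cell cycle exit or of other cell types in the histone values was not tested.

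**Figure D5:**
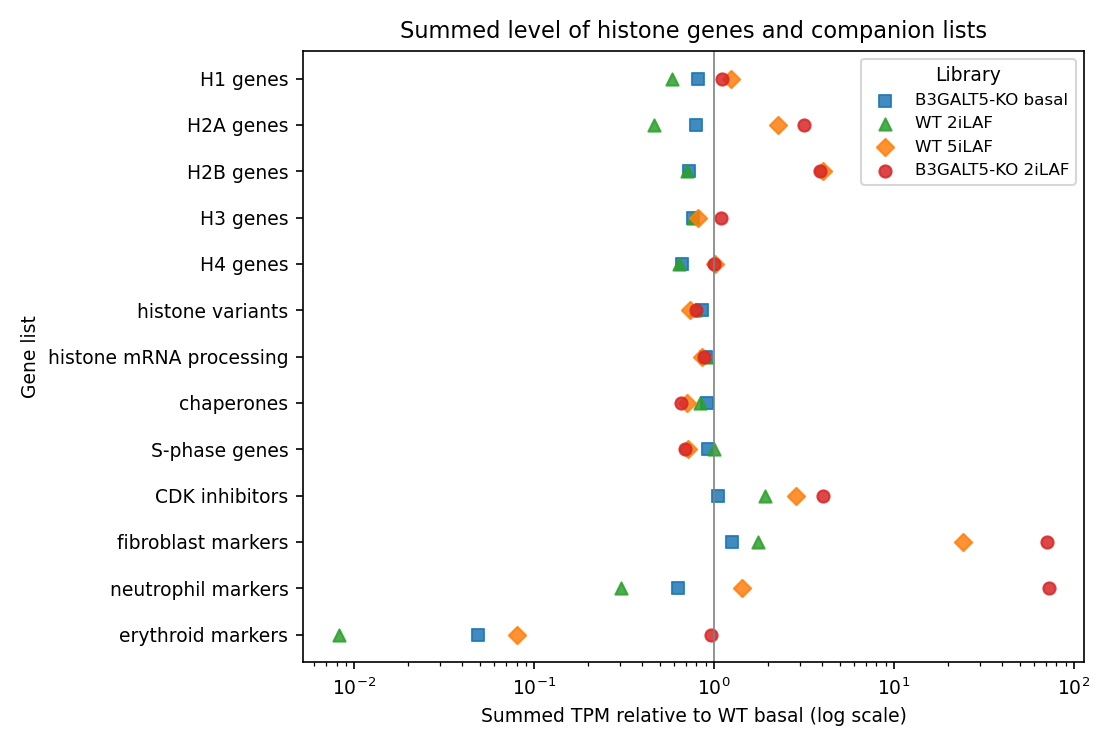
Points give the summed TPM of each gene list relative to WT basal (vertical line at 1, log scale) in the other 4 libraries. H2A, H2B, CDK inhibitor and fibroblast sums lie above WT basal in WT 5iLAF and KO 2iLAF, while S-phase, chaperone and histone variant sums lie below it in both. The CDK inhibitor and fibroblast sums are also above WT basal in KO basal and WT 2iLAF, and the chaperone and variant sums are also below it there.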

How the data were processed

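The data are 5 RNA-seq libraries of H9 cells, made from oligo(dT)-selected RNA with a stranded kit, per the labels' protocols. Trimmomatic 0.39, Bowtie2 2.3.4.1, RSEM 1.2.28 and genome build hg19 are named in the submitters' processing notes. For the annotation and strand setting nothing is stated in the sources used here. Per the file headers, the deposited table holds TPM and FPKM of every gene symbol in every library. TPM as deposited was used, and the deposited FPKM served as an alternative. FPKM divided by TPM was 0.484 to 0.531 among the libraries, so these units differ only by scale. With the pseudocount and filter kept at 1, FPKM acts mainly as a larger pseudocount and a stricter filter. It is not a check of the quantification. No counts were used and the depth is unknown.

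Log2 differences were taken of TPM + 1 for the 15761 genes at 1 TPM or more in at least 1 library, and sums per histone type used no pseudocount. A log2 ratio of 1 in size set which genes were counted as higher or lower. With 1 library per group no test was made, and 6 comparisons were described. The calculation was tested on simulated data. The members were set by the name rule, and the lists were chosen with earlier results of these data known. Members named are the most abundant of each type, those with the largest differences in each comparison, those past the size limit between genotypes in basal medium, and the testis and polyadenylated members. Members outside that rule, such as those completing a count or a head-to-head pair, were named after their values were seen. From each companion list the genes named are up to 5 with the largest differences or highest means, and always SLBP, NPAT, CDKN1A and B3GALT5. SLBP stands in 2 lists, and so does MCM2. Stem-loops were searched in GENCODE 29 transcripts and promoter motifs in RefSeq promoters (GRCh38.p14), with Python 3.11.15, numpy 2.4.6 and pandas 2.3.3. Alternatives were other pseudocounts, filters, scalings and size limits, and sums without the most abundant member. FPKM, identical pairs counted once and the set without pseudogenes were added after seeing the data.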

Additional observations from a re-analysis of the deposited data

Results flagged for a closer look

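In 3 results the step from basal to 2iLAF medium went in opposite directions in the 2 genotypes, each genotype with 1 library per medium, and the difference itself was not tested. HIST1H4J was lower in 2iLAF than in basal medium in WT cells (log2 difference -1.05) and higher in KO cells (1.02), a gap of 2.07. HIST1H4K was higher in WT cells (2.44) and lower in KO cells (-1.55), a gap of -3.99 that rests on values of 0 in WT basal and KO 2iLAF and on at most 4.41 TPM elsewhere. It was above 0 only in KO basal (1.93 TPM) and WT 2iLAF (4.41 TPM), the libraries where HIST1H4J was lowest (11.0 and 8.07 TPM). Reads can be exchanged between these near-identical H4 genes, so their results may not be separate, which was not tested. The summed TPM of H2A had a log2 ratio of -1.11 in WT cells and 2.00 in KO cells, a gap of 3.10. The H2B sum also lay on opposite sides of its basal level, at -0.49 in WT and 2.41 in KO cells.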

How the results depend on the processing

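Among the sums by type and over all members, 103 of 108 log2 ratios of sums kept their side of a size of 1. Some under that size changed sign without their most abundant member: H1 without HIST1H1C was 0.05 in KO basal against WT basal, -0.05 in WT 5iLAF against WT basal and 0.70 in KO 2iLAF against WT 5iLAF, and H4 without HIST1H4J was -0.44 in WT 5iLAF against WT basal, -0.15 in KO 2iLAF against KO basal and -0.36 in KO 2iLAF against WT 2iLAF. Of 54 medians over the members 50 kept their side. With a filter of 5 TPM, which leaves 18 members, the median turned from -0.18 to 1.23 in WT 5iLAF against WT basal, rose from 0.37 to 2.02 in KO 2iLAF against KO basal and from 0.92 to 1.89 in KO 2iLAF against WT 2iLAF. In the last comparison it was 1.5 with a pseudocount of 0.1. Of 240 medians of other lists, 8 fell short of the limit and 2 passed it. The exceptions among the sums were H2A in WT 5iLAF against WT basal without HIST3H2A (0.67), all members in that comparison without HIST1H2BN (0.99), H2A in WT 2iLAF against WT basal with median-ratio scaling (-0.92) or trimmed-mean scaling (-0.93), and H1 in KO 2iLAF against WT 2iLAF without HIST1H1C (1.19, past the limit). Of 132 counts of members, 80 stayed within 1.5 times the reported count. Of 816 values of named members 729 stayed on their side of the limit, 56 fell short of it and 31 passed it. In most of the changes below fewer members are tested or the limit itself differs, and otherwise the cause was not tested.

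In KO basal against WT basal the counts higher and lower were 5 and 13 with a pseudocount of 0.1, 5 and 15 with a 1.5-fold limit, and 0 and 0 with a pseudocount of 5, a filter of 5 TPM, a 4-fold limit or FPKM. In WT 5iLAF against WT basal the count lower was 14 with a pseudocount of 0.1, 0 with 5, 2 with a filter of 5 TPM, 5 with either scaling, 15 with a 1.5-fold limit and 3 with FPKM, and a 4-fold limit gave 5 higher and 0 lower. In WT 2iLAF against WT basal the counts were 3 and 22 with a pseudocount of 0.1, 0 and 0 with 5, 0 and 2 with a filter of 5 TPM, and 3 and 24 with a 1.5-fold limit, with 0 lower at a 4-fold limit and 3 lower with FPKM. In KO 2iLAF against KO basal 6 were lower with a pseudocount of 0.1 or a 1.5-fold limit, 0 with a filter of 5 TPM and 1 with FPKM, and the counts were 11 and 0 with a pseudocount of 5 and 9 and 0 with a 4-fold limit. In KO 2iLAF against WT 2iLAF they were 12 and 0 with a pseudocount of 5, 14 and 1 with a filter of 5 TPM, and 8 and 1 with a 4-fold limit. In KO 2iLAF against WT 5iLAF they were 14 and 3 with a pseudocount of 0.1 and 15 and 4 with a 1.5-fold limit, and 0, 2 and 0 were higher with a pseudocount of 5, a filter of 5 TPM and a 4-fold limit.

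Leaving out a replicate was not run, since each group holds 1 library. No paired analysis was possible because each group holds 1 library and the result comes from no test. Without counts the depth behind each value is unknown, so members under about 1 TPM cannot be ranked.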
